A study of Mus musculus with 2 samples.

Results

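Glycolysis genes and hypoxia response genes are described here in uterine implantation sites of Cbs null mice and of control mice. The set was chosen by gene name and holds 35 genes, 23 that take up or use glucose and 12 of the response to low oxygen. Of these, 31 had at least 1 probe set annotated to that gene alone, with 64 probe sets in all, among 12393 genes so annotated on the array. Eno1, Gpi1 and Ankrd37 were named by none of the probe set annotation used here, and the 3 probe sets of Bnip3l also named its pseudogene, so these 4 genes have no value of their own.

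An implantation site is the piece of pregnant uterus that holds an embryo with the maternal decidua around it. The Cbs null group had 1 array, from females homozygous for a deficiency of Cbs, which encodes cystathionine beta-synthase, the enzyme that joins homocysteine to serine. The control group had 1 array, and females of both groups were 4 months old, on a C57Bl/6J X OLA129 background and at day 8 of pregnancy. Neither the extent of the Cbs deletion, nor any pooling of sites or animals, nor the genotype of the conceptus is given in the labels. There was no replicate array, so no test between genotypes was possible and every difference below describes these 2 arrays.

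Each value is the linear signal of a probe set, a group of probes to one transcript, in array units that the authors had already scaled. Signals of different probe sets are not on a common scale and are not compared with each other. Results are log2 ratios of Cbs null over control, with values under 14.3 raised to that floor. Probe sets with a mean of both arrays of at least 70.5 were kept, 51 of the 64, and 26 of the 31 genes passed. Where a gene has several probe sets, its main value is that of the brightest one. Over all 7079 kept genes the median log2 ratio was 0.02, and 95% of them lay between -0.48 and 0.58. Where a gene had several kept probe sets, the log2 ratios of the brightest pair differed with an SD of 0.30 over 2284 genes, the only repeated measure within these arrays.

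The probe sets of Cbs read 23.8 and 22.3 on the Cbs null array, against 30.3 and 29.9 on the control array, both below the filter, and do not check the genotype because the deleted part is not given. Markers of the labelled tissue were present on both arrays. Of 12 markers of decidua and uterus 11 were kept, with a median log2 ratio of 0.03. Among these, 2 were past 1.5-fold lower (1.33% of all kept genes were), Bmp2 at -1.21 and Tdo2 at -0.84, while the decidual prolactin Prl8a2 was at 0.52. All 6 markers of smooth muscle were kept, with a median of -0.05.

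Glycolysis splits glucose into pyruvate in the cytosol, and cells that rely on it turn pyruvate into lactate and export it. When oxygen is short, prolyl hydroxylases no longer mark the alpha subunits of hypoxia-inducible factor (HIF) for destruction, and the factor switches on glucose transporters, glycolytic enzymes and genes of mitophagy, collagen folding and growth restraint. Decidual cells of the early mouse implantation site are known for high glucose uptake and lactate output, and the inner decidua next to the embryo has few vessels.

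HIF binds a short core in DNA, ACGTG or GCGTG, and the promoters of 5 members are shown because they carry that core. Slc2a1 and Ldha stand for the set, and Pgk1, Pfkfb3 and Ddit4 were picked after their values were seen, as genes lower or higher on the Cbs null array. They are the 250 bases before the most upstream RefSeq start in build GRCm38.p6, 5′ to 3′ on the strand of the gene, with capitals for every ACGTG or GCGTG on either strand. Slc2a1 lies at chr4:119108495-119108744 on the plus strand, Ldha at chr7:46845554-46845803 on the plus strand, Pgk1 at chrX:106186850-106187099 on the plus strand, Pfkfb3 at chr2:11553930-11554179 on the minus strand and Ddit4 at chr10:59951771-59952020 on the minus strand.
Slc2a1: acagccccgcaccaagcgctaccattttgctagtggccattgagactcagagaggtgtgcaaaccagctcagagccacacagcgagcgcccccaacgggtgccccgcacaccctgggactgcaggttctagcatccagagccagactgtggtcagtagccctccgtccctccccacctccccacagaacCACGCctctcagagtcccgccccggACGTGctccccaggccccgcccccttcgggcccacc
Ldha: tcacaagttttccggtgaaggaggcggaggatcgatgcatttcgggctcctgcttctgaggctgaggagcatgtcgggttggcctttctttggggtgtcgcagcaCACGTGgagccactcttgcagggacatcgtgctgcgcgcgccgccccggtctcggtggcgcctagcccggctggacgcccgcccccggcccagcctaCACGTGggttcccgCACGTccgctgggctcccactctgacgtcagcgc
Pgk1: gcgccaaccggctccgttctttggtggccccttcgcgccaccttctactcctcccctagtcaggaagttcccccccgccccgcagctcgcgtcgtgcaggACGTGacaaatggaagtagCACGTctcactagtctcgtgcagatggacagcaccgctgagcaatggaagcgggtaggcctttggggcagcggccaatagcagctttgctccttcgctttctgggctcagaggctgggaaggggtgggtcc
Pfkfb3: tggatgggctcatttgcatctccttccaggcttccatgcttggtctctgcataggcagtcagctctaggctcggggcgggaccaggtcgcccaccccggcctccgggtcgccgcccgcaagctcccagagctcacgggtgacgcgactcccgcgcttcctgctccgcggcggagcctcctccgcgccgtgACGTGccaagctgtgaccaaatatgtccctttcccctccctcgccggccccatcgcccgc
Ddit4: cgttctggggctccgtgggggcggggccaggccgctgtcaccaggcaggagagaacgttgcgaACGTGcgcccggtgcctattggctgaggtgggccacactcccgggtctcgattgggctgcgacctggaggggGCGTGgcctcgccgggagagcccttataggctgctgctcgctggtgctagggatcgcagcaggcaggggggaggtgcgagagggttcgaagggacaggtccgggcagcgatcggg

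Because ACGTG and its reverse complement overlap in CACGTG, that run counts once on each strand. In the full RefSeq window of 300 bases, which runs 50 bases past the start, Ldha had 7 matches, of which 5 lay before the start. Pfkfb3 had 1 match, and Slc2a1, Pgk1 and Ddit4 had 2 each. RefSeq windows were found for 31 of the 35 genes, and 25 of these genes held at least 1 match in the window of their most upstream start. Counted over all 44 windows of these genes, alternative starts included, 81.8% held a match, against 43.8% of all 32851 windows in the table. The windows of the set also held more CpG pairs, with a median of 21 against 7, and both pentamers contain a CpG. A match describes letters in a window and is not evidence that HIF binds there.

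Most members differed little between the arrays, and slightly more of them were lower than higher on the Cbs null array. Of the 26 kept members 16 had a log2 ratio below 0 and 10 above 0, whereas 44.9% of all kept genes were below 0 and 55.0% above. The median of the members was -0.10 (quartiles -0.21 and 0.04). At a limit of 1.5-fold, 1 member was lower and 0 were higher, beside 1.33% of all kept genes lower and 2.46% higher. At a smaller limit, 0.32 on the log2 scale, 3 members were lower (6.31% of all kept genes) and 1 was higher (9.69%). Each gene is 3.85% of the 26, so the counts past either limit lay within 2 genes of what the shares over all genes give. The sites are bulk tissue, in which fewer cells of a type and less RNA per cell cannot be told apart.

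**Figure D1:**
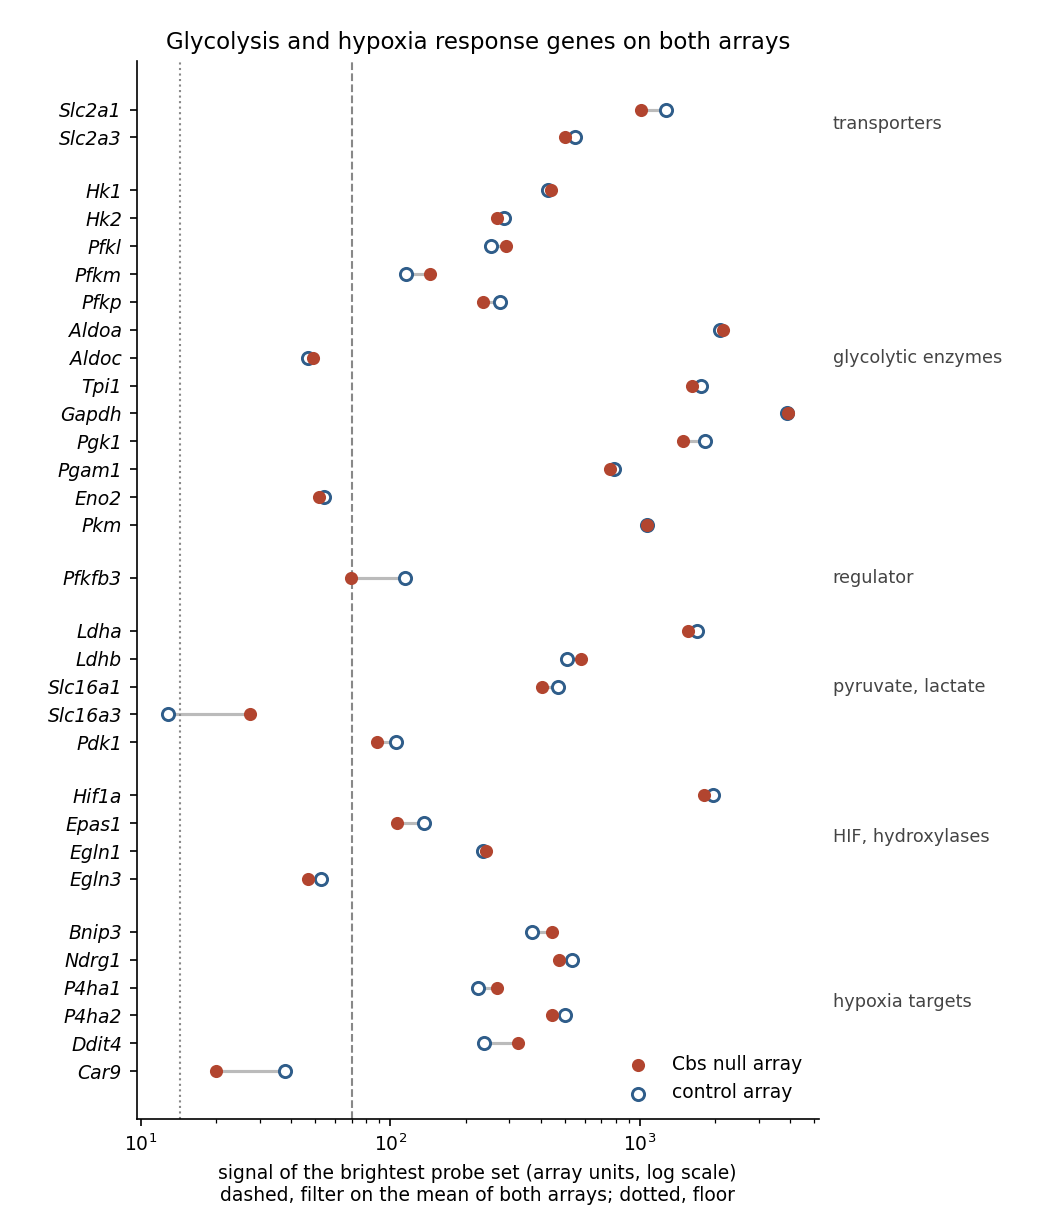
Signal of the brightest probe set of each of the 31 genes on a log axis, filled points for the Cbs null array and open points for the control array, grouped by role. The points of a gene nearly touch for most kept genes, Pfkfb3 is the kept gene with the widest gap, and the wide gaps of Slc16a3 and Car9 lie below the filter of 70.5.

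The glucose transporters were both lower on the Cbs null array, by less than 1.3-fold. Slc2a1, GLUT1, a main glucose carrier of decidual cells, read 1010.7 on the Cbs null array and 1267.4 on the control array, a log2 ratio of -0.33. Its other probe sets read 690.1 in Cbs null against 810.5 in control, and 361.1 in Cbs null against 372.9 in control. All 3 probe sets pointed down, but the smallest difference was only -0.05 on the log2 scale. Slc2a3, GLUT3, a carrier with high affinity for glucose, read 499.4 in Cbs null and 548.8 in control, and its other kept probe set had a log2 ratio of -0.15.

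Enzymes at the head of glycolysis pointed both ways. Hk1 and Hk2, hexokinases that trap glucose as its phosphate, had log2 ratios of 0.04 and -0.09. Hk1 read 439.9 in Cbs null and 428.6 in control, and its dimmer probe set read 119.8 in Cbs null against 95.8 in control. Hk2 read 267.6 in Cbs null and 284.9 in control. The dimmer Hk1 probe set had a log2 ratio of 0.32, further from 0 than the brighter one.

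The phosphofructokinase subunits, which form the committed step, differed from each other in direction. Pfkm, the muscle type subunit, read 143.9 in Cbs null and 115.7 in control, a log2 ratio of 0.31. Pfkl, the liver type subunit, read 290.9 in Cbs null and 253.7 in control, and its other probe set had 0.03. Pfkp, the platelet type subunit, read 235.1 in Cbs null and 274.3 in control, a log2 ratio of -0.22. The ratios of Pfkp and Pfkm were 0.54 apart, the widest gap among the subunits. With a single kept probe set each for Pfkp and Pfkm, that gap has no repeat within the arrays.

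Pfkfb3 had the largest difference of all kept members. Its product makes the signal sugar that activates phosphofructokinase, and it is a known HIF target. The kept probe set read 69.6 on the Cbs null array and 114.0 on the control array, 1.64-fold lower, and 0.791% of kept genes had a lower ratio. It was the only kept member outside the range that holds 95% of genes of like signal, -0.53 to 0.66. It is a dim probe set that passed the filter through its control value. The other Pfkfb3 probe set went the opposite way from a dimmer signal, at 24.4 in Cbs null and 12.0 in control, below the filter and partly below the floor.

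The abundant middle and lower enzymes were nearly level, with Pgk1 as the exception. Aldoa, aldolase A, had log2 ratios from -0.04 to 0.04 over 4 probe sets, the brightest at 2156.7 in Cbs null and 2094.9 in control. Tpi1, triose phosphate isomerase, read 1613.2 in Cbs null and 1749.6 in control, with a range of -0.23 to 0.02 over its 3 probe sets. Pgam1, phosphoglycerate mutase, read 756.4 in Cbs null and 789.2 in control. Pkm, pyruvate kinase, had a log2 ratio of -0.01, at 1062.5 in Cbs null and 1070.4 in control. These enzymes thus differed by less than 1.1-fold in their brightest probe sets.

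The probe sets annotated to Gapdh alone are the controls that the manufacturer placed along its transcript. They read 3917.2, 3878.6 and 3416.6 on the Cbs null array and 3896.2, 3730.4 and 3636.3 on the control array, from the 3′ end to the 5′ end. Probe sets that also name Gapdh pseudogenes read 4805.8 and 58.9 in Cbs null against 4695.1 and 84.8 in control, with log2 ratios of 0.03 and -0.53. The brightest of the controls had a log2 ratio of 0.01, and the 3′ over 5′ signal, a sign of RNA length, was 1.15 in Cbs null and 1.07 in control.

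Pgk1, phosphoglycerate kinase, which makes the first ATP of glycolysis, was lower in each of its 3 probe sets. They read 1483.3, 1282.4 and 220.7 on the Cbs null array, against 1821.9, 1500.3 and 325.5 on the control array. The log2 ratios were -0.30, -0.23 and -0.56, so the dimmest probe set differed most. Aldoc and Eno2, isozymes best known from brain, were below the filter, at 49.0 and 52.0 in Cbs null against 46.9 and 54.4 in control.

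Ldha and Ldhb, the subunits of lactate dehydrogenase, pointed in opposite directions. Ldha, the form that favours lactate, read 1561.9 on the Cbs null array and 1688.4 on the control array in its single probe set, a log2 ratio of -0.11. Ldhb, the form common in oxidative tissue, read 579.3, 594.0, 490.2 and 481.9 in Cbs null, against 508.7, 447.1, 396.6 and 399.0 in control. All 4 Ldhb probe sets were higher in Cbs null, with log2 ratios of 0.19, 0.41, 0.31 and 0.27. Each of them, like the single Ldha probe set, is of a type marked x or a in its name. Without such types neither Ldha nor Ldhb had a value. The brightest probe sets of Ldha and Ldhb were 0.30 apart in log2 ratio, as wide as the SD between probe sets of one gene.

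Slc16a1 and Pdk1 were lower on the Cbs null array. Slc16a1, the monocarboxylate carrier MCT1, read 403.4 in Cbs null and 471.6 in control, a log2 ratio of -0.23. Pdk1, which blocks pyruvate entry into mitochondrial oxidation, read 88.4 and 88.4 in Cbs null, against 105.3 and 92.4 in control, in its 2 probe sets. Slc16a3, the lactate exporter MCT4, was close to the floor, at 27.5 in Cbs null and 12.8 in control, and no fold is drawn from it. Of all glucose genes, 12 of the 18 kept glucose genes were below 0, with a median of -0.10.

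**Figure D2:**
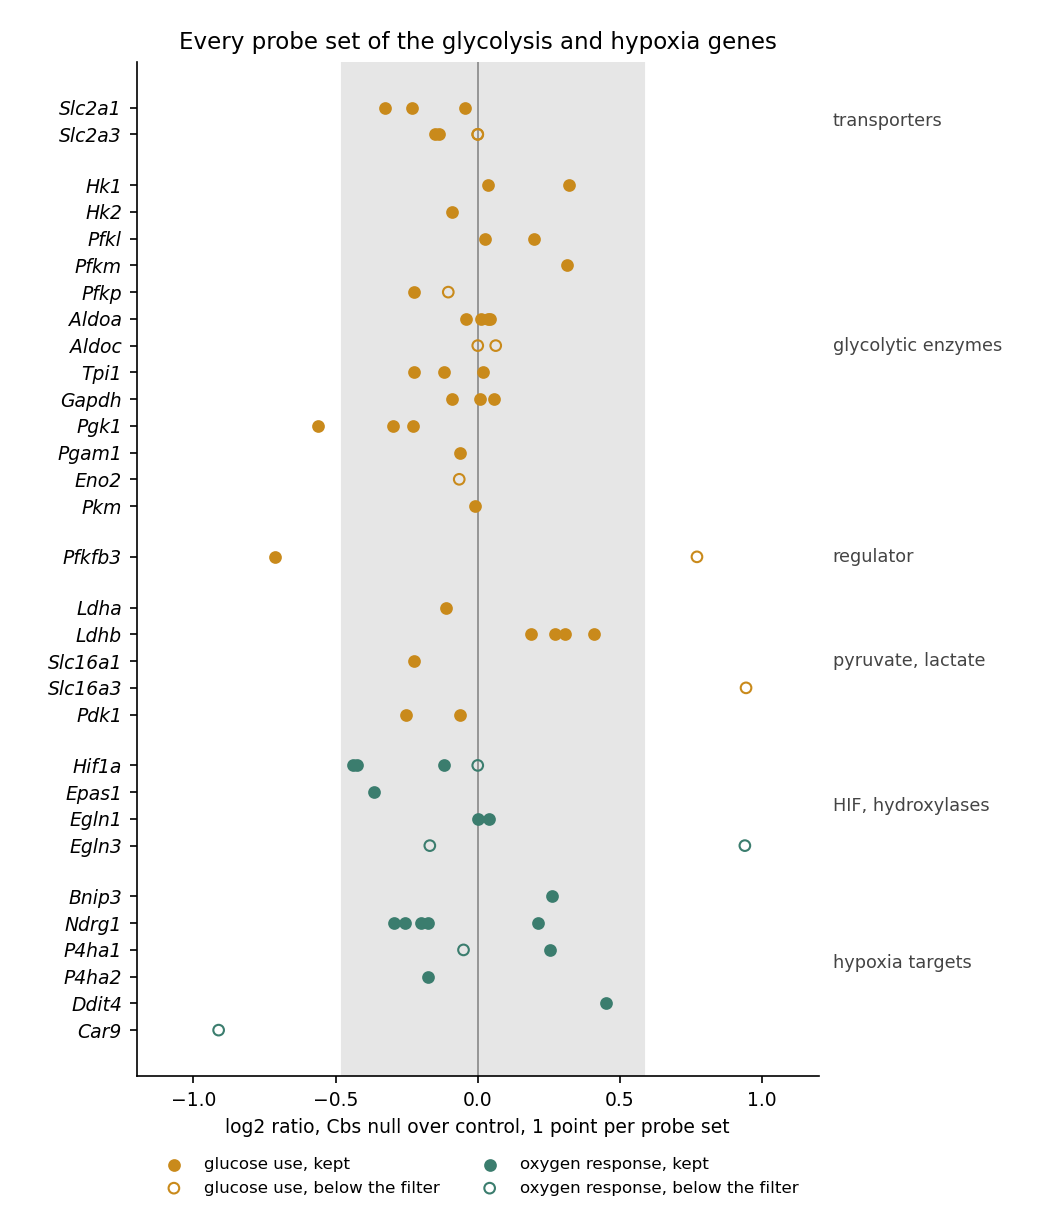
Log2 ratio of Cbs null over control for each of the 64 probe sets, filled where kept and open where below the filter, with the grey band marking the range from -0.48 to 0.58 that holds 95% of all kept genes. Slc2a1, Pgk1 and Hif1a have all kept points left of 0 and Ldhb has all points right of it, while Pfkfb3 and Egln3 each have points far apart.

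The HIF alpha subunits were lower on the Cbs null array in every kept probe set. Hif1a read 1803.0, 251.8 and 67.5 on the Cbs null array, against 1955.9, 341.6 and 90.6 on the control array. Its brightest probe set had a log2 ratio of -0.12, while the other kept ones had -0.44 and -0.42, so the size depended on the probe set. Epas1, HIF2A, which is prominent in endothelium, read 106.2 in Cbs null and 136.9 in control, a log2 ratio of -0.37. HIF activity is set mainly by protein stability, which these arrays do not measure.

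The prolyl hydroxylases that mark HIF for destruction were level or too dim. Egln1, PHD2, the main oxygen sensor, read 241.0 and 103.3 in Cbs null against 234.3 and 103.3 in control. Egln3, PHD3, itself a HIF target, had both probe sets below the filter. They read 46.8 and 51.2 in Cbs null against 52.6 and 26.7 in control, in opposite directions.

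The other hypoxia targets split, with Ddit4, Bnip3 and P4ha1 higher and Ndrg1 and P4ha2 lower. Ddit4, REDD1, which restrains mTORC1 under stress, read 325.4 on the Cbs null array and 238.3 on the control array, a log2 ratio of 0.45. That was 1.37-fold, and 95.1% of kept genes had a lower ratio. Bnip3, a mitophagy receptor, read 444.5 in Cbs null and 370.5 in control, a log2 ratio of 0.26. The 3 probe sets that name its relative Bnip3l together with the Bnip3l pseudogene pointed the same way, at 778.7, 441.5 and 135.5 in Cbs null against 639.2, 368.5 and 121.8 in control.

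The collagen prolyl hydroxylase subunits P4ha1 and P4ha2, which ready collagen for folding, pointed apart. P4ha1 read 266.9 in Cbs null and 223.9 in control, a log2 ratio of 0.25, and its other probe set, below the filter, had -0.05. P4ha2 read 443.2 in Cbs null and 500.1 in control, a log2 ratio of -0.17. The gap of 0.43 between their ratios rests on a single kept probe set for each gene.

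Ndrg1, a stress gene induced by low oxygen, was lower in 4 of its 5 probe sets. The brightest read 473.8 in Cbs null and 534.8 in control, and the 5 log2 ratios ran from -0.30 to 0.21. The dimmest, one of those lower, read 65.7 in Cbs null and 75.5 in control. With a mean of 70.6 it barely passed the filter, through its control value. Car9, carbonic anhydrase 9, one of the most oxygen-dependent genes known, was below the filter, at 20.1 in Cbs null and 37.8 in control. With so little signal Car9 gave no usable fold. Over the 8 kept oxygen response genes 4 were below 0 and 4 above 0, and the median was -0.04 (range -0.37 to 0.45).

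Taking genes with several kept probe sets, 13 members allowed a check of direction within the arrays. Slc2a1, Slc2a3, Pgk1, Pdk1 and Hif1a, 5 in number, were lower in every kept probe set, and Hk1, Pfkl and Ldhb, 3 in number, were higher in every one. The other 5, Aldoa, Tpi1, Gapdh, Egln1 and Ndrg1, were mixed or level. The same counts were not taken over all genes with several kept probe sets, so whether those of the members are unusual cannot be told. Leaving out Gapdh, the brightest pair of probe sets had the same sign in 9 of 12 members, against 62.0% of all genes with several. Over all 51 kept probe sets of the set, 30 were below 0, 20 above 0 and 1 at 0, with a median of -0.06. Of all 11315 kept probe sets 5319 were below 0 and 5988 above, with a median of 0.01. Several of the 51 measure the same gene, so they are not separate members. The dimmest kept probe sets of Hif1a and Ndrg1, and the kept one of Pfkfb3, passed the filter through their control values, which favours lower ratios.

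**Figure D3:**
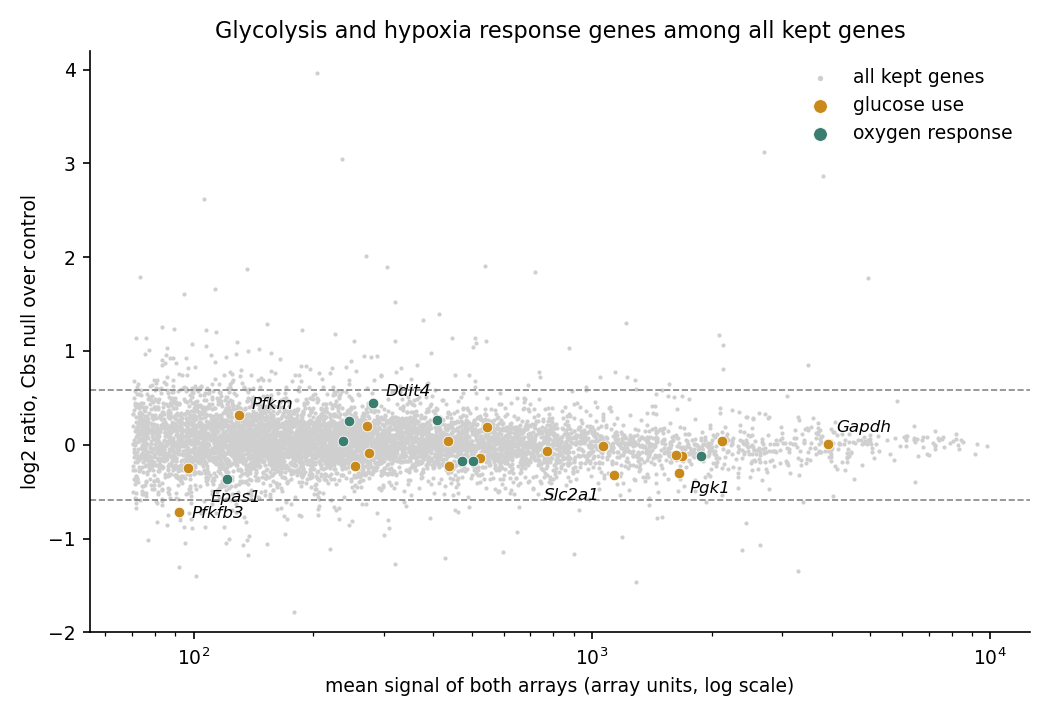
Log2 ratio of Cbs null over control against the mean signal of both arrays on a log axis, for 7079 kept genes in grey and the 26 kept members in colour, with dashed lines at 1.5-fold. All members but Pfkfb3 lie between the dashed lines, inside the cloud of other genes.

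In their brightest probe sets, kept genes of 5 neighbouring pathway lists stayed within 1.5-fold, and the list medians lay between -0.05 and 0.31. Of all kept genes 2.46% were past 1.5-fold higher and 1.33% lower. Siah1a of the oxygen sensing list, at -0.09 in its brightest probe set, reached 0.68 in another kept one. Of 21 other glucose carriers, isozymes and regulators 4 were kept, with a median log2 ratio of 0.31, and 0 passed 1.5-fold in either direction. Bpgm, which makes the red cell modulator of haemoglobin, read 138.2 in Cbs null and 117.9 in control, and Slc2a4, the insulin-sensitive carrier, 103.9 in Cbs null and 105.2 in control. Kept members of pyruvate import and oxidation, 9 in number, had a median of 0.01 and 0 past 1.5-fold. Pdha1, the catalytic subunit of pyruvate dehydrogenase, was at 0.01 and Cs, citrate synthase, at -0.07. Picked after their values were seen, Pdk4, a kinase that like Pdk1 blocks pyruvate oxidation, read 101.0 in Cbs null and 74.1 in control (0.45), and Pcx, pyruvate carboxylase, read 243.1 in Cbs null and 179.4 in control (0.44).

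Gluconeogenesis and glycogen genes had a median of -0.05 over 9 kept genes, and the pentose phosphate pathway, which branches from glycolysis to make NADPH and ribose, had -0.03 over 7, with 0 past 1.5-fold in both. Pygb, a glycogen phosphorylase, was at 0.23 and Ugp2, which makes the sugar donor for glycogen, at -0.19. Tkt, transketolase, was at -0.03 and Pgd, phosphogluconate dehydrogenase, at -0.25. Other components of oxygen sensing had a median of 0.02 over 9 kept genes. Elob and Eloc, which hold the VHL ubiquitin ligase together, were at 0.02 and 0.07.

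Further hypoxia targets also pointed both ways. From 41 listed symbols, among which Ero1a and Ero1l name the same gene, 26 genes were kept. Of these 16 were below 0 and 10 above 0, with a median of -0.06. Gys1 and Gbe1 are also on the glycogen list. Past 1.5-fold, 2 of the 26 were higher and 0 lower, beside the 2.46% and 1.33% of all kept genes. Rora, a nuclear receptor, read 122.7 in Cbs null and 79.5 in control. Adm, the vasodilator adrenomedullin, read 145.5 in Cbs null and 69.9 in control, a log2 ratio of 1.06, and passed the filter through its Cbs null value. Both genes had a single kept probe set. Car12 of the same list, at 92.1 in Cbs null and 48.5 in control, lay just below the filter and is not among the 26.

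Markers of several cell types differed more than the glucose and oxygen genes on the same arrays. The lists were chosen with earlier results of these data known, so the contrast describes these lists and tests nothing. Uterine NK cell markers, 8 kept of 10 listed, had a median log2 ratio of -0.91. Of these 8, 7 were below 0 and the receptor Klrk1 was at 0.05, while Ncr1, below the filter, was at 0.26. Il2rb, at 61.1 in Cbs null and 110.5 in control, was kept because of its control value. The summed signal of the 9 on the array, a sum that bright probe sets dominate, was 4704.6 in Cbs null and 10519.2 in control. Uterine epithelium markers, 11 kept of 12, had a median of 0.64 and summed to 23684.0 in Cbs null and 6780.3 in control. Without Spink1, Prss28 and Prss29 the other 9 summed to 4518.4 in Cbs null and 3085.0 in control. Embryonic red cell markers, 4 kept of 7, had a median of 0.90 and summed to 5556.5 in Cbs null and 3001.7 in control. These lists differed in both directions. All kept members but Pfkfb3 stayed within 1.5-fold, as did most kept genes, of which 2.46% were past it higher and 1.33% lower.

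Macrophage markers had a median of 0.30 over 7 kept of 8, with sums of 3552.9 in Cbs null and 2895.3 in control. Fat cell markers had 0.67 over 4 kept of 6, with sums of 4155.3 in Cbs null and 2521.4 in control, and 1 of the 4, Plin4, was lower at -0.50. Trophoblast markers had 1.08 over 4 kept of 8, with sums of 1143.2 in Cbs null and 590.8 in control. Yolk sac endoderm markers had 1.78 over 3 kept of 7 and endothelial markers 0.06 over all 6, and the sums were 1100.3 and 2160.5 in Cbs null against 626.7 and 2313.3 in control. Prl2b1 and Prl4a1 of the trophoblast list and Afp and Ttr of the yolk sac list lay under the filter in control and were kept because of their Cbs null signal, which raises these medians. With no filter the median was 0.66 over all 7 yolk sac genes and 0.61 over the 6 trophoblast genes on the array, and with the filter at the 75th percentile a single yolk sac gene was left, at 0.003. Hba-a1 of the red cell list and Apoa4 of the yolk sac list were under the floor on both arrays. Single markers reached log2 ratios of 3.96 for Afp, 3.13 for Spink1 of epithelium, 1.39 for Tpbpa of trophoblast and 1.33 for the embryonic globin Hba-x, and of -1.46 for Gzmc of NK cells and -1.21 for Bmp2 of decidua. The part that these cell type differences play in the values of Slc2a1, Pgk1, Ldhb, Hif1a, Pfkfb3 and Ddit4 was not tested.

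**Figure D4:**
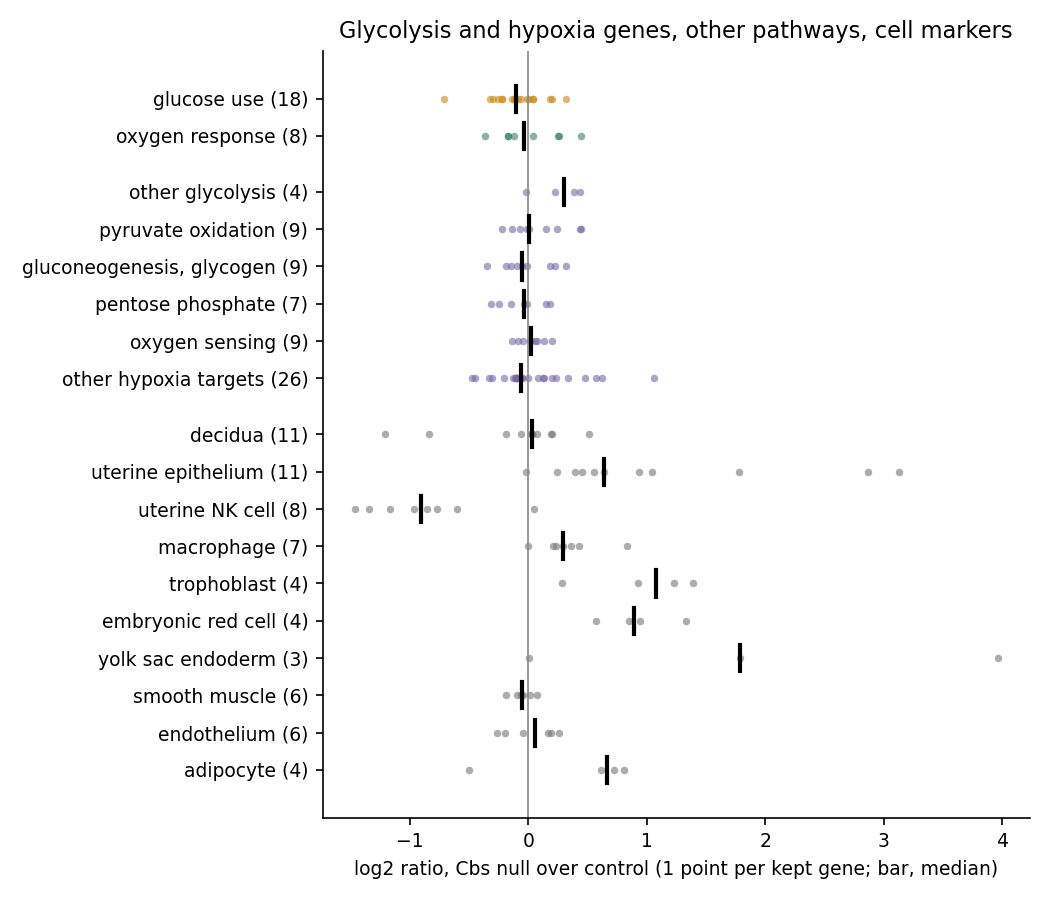
Log2 ratio of Cbs null over control for each kept gene, with a bar at the median, for glucose use and oxygen response genes, 6 other pathway lists and 10 lists of cell type markers, the number of kept genes in brackets. Medians of the glucose and oxygen genes lie at -0.10 and -0.04, next to those of most pathways, while uterine NK cell markers lie at -0.91 and uterine epithelium markers at 0.64.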

How the data were processed

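Total RNA of dissected implantation sites was labelled as biotinylated cRNA from 2 microg and hybridised to Affymetrix arrays, per the labels' protocols. The authors deposited linear intensity values, 1 for each probe set on each array. GCOS 1.4 is the software named in the submitters' processing notes. Its algorithm, detection calls and build were not given in the sources used here. Over all probe sets the trimmed mean was 200.1 on both arrays, so no further scaling was applied. Of 22690 probe sets, 64 array controls were left out, except those of Gapdh. Gene names came from the platform annotation, and promoters from RefSeq, build GRCm38.p6. Of the other probe sets 20380 named 1 gene, 691 several and 1555 none.

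The floor was the 25th percentile of both arrays and the filter the median of mean signal. All 35 members are named, and from each other pathway list the genes past 1.5-fold, at most 4, or with none the 2 brightest. Members, lists and limits were chosen with earlier results of these data known. Alternatives were quantile normalization, centring, loess, other floors, a pseudocount, other filters, the median over probe sets, fewer probe set types and other fold limits. Functions were tested on simulated arrays. No p-value was computed. Precision is limited by having 1 array per genotype. Python 3.11 was used.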

Additional observations from a re-analysis of the deposited data

How the results depend on the processing

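No paired analysis was possible because each genotype had 1 array. The median log2 ratio of all members lay between -0.12 and -0.07 over 12 alternatives, and that of the glucose genes between -0.12 and -0.07, so both stayed below 0, also without Gapdh (-0.11 for each, an alternative added after the data were seen). The oxygen response median of -0.04 was -0.14 with the filter at the 25th percentile or with no filter, which let in the dim Car9 and Egln3, and 0.04 with the filter at the 75th percentile. At these lower filters 1 member was past 1.5-fold higher (Slc16a3) and 2 lower (Pfkfb3 and Car9) of 31, beside 5.1% and 3.67% of all genes with the filter at the 25th percentile and 4.07% and 2.95% with none. At the 75th percentile Pfkfb3 was filtered out and 0 of 22 members were lower, beside 0.979% of all genes. With a limit of 2-fold 0 members were lower and 0 higher, beside 20 and 44 of all 7079 kept genes. At 0.32 on the log2 scale 3 were lower and 1 higher, beside 6.31% and 9.69% of all kept genes. Many recomputed values of single genes could not move. The other floors left every kept member, and so the medians above, unchanged. The other filters changed which genes were kept but not the ratio of a gene. The median over probe sets cannot change a gene with a single kept probe set. Members without a value under an alternative were not counted. Of 274 recomputed values, those that could not move included, 272 moved by less than 0.30, so this count is a weak check. The exceptions were both Hif1a, at -0.42 as the median over probe sets and -0.44 without probe sets of the x, s and a types. That -0.42 is the ratio of its dimmest kept probe set, which passed the filter through its control value. Slc2a1 was at -0.05 without the x, s and a types, because the probe set that remained differed least. Pkm and Gapdh, next to 0, changed sign in 2 and 1 alternatives. The list of other glucose carriers and isozymes, at 0.31 over 4 genes, was -0.020 over 8 with the filter at the 25th percentile.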
